A study of Mus musculus with 3 samples.

Results

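Levels of 10 genes that sense particulate β-glucan and relay the signal were described across the leukocytes of the mouse pancreas. The genes were chosen by name for their place in this pathway, with earlier results of these data known. All 10 were found among the 31053 genes listed in the deposited count tables. They comprised 3 C-type lectin receptors (Clec4e, Clec4d and Clec4n), the kinase gene Syk, the phospholipase gene Plcg2, the adaptor complex genes Card9, Bcl10 and Malt1, and the complement receptor 3 genes Itgam and Itgb2.

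As background, cells of the myeloid lineage recognise fungal cell wall sugars through C-type lectins and through complement receptor 3, an integrin that also has a binding site for β-glucan. Clec4e encodes Mincle, Clec4d encodes MCL (also called Dectin-3) and Clec4n encodes Dectin-2, and these receptors pair with the signalling chain Fcer1g. Receptor ligation activates the kinase SYK, which acts through PLCγ2 and PKCδ on CARD9, and CARD9 assembles with BCL10 and the paracaspase MALT1 to activate NF-κB. Clec7a, which encodes the β-glucan receptor Dectin-1, was not analysed here.

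The study asked how whole glucan particles (WGP), particulate β-glucan from yeast cell walls, alter the immune cells of the pancreas. Live CD45+ cells, that is leukocytes, were sorted from digested pancreas and profiled by droplet single-cell RNA sequencing of 3' ends. There were 3 libraries, 1 each from mice given phosphate-buffered saline (PBS), mice given WGP 3 days before euthanasia and mice given WGP 7 days before euthanasia. The study's methods describe young adult wild-type C57BL/6 mice of both sexes and a single intraperitoneal injection of WGP or PBS, with no deletion or transgene in these groups. The number of mice behind a library was not given in the sources used here, so no difference between libraries has a replicate check and no p-value is given. Both WGP libraries are compared with the same PBS library. Intervals are exact 95% Poisson intervals for levels and exact Clopper-Pearson intervals for shares of cells, and they cover counting error only.

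Barcodes with at least 1000 unique molecular identifiers (UMIs, 1 per captured transcript) and at most 30% of UMIs from mitochondrial genes numbered 5249 in the PBS library, 4879 in the 3-day library and 4174 in the 7-day library. The median number of UMIs per cell was 5755, 5754 and 8077. Pairs of libraries shared 1 to 9 cell barcodes. Every library held cells of both sexes as sex-linked transcripts show it. Cells with Xist and no chromosome Y transcript numbered 2039 in the PBS library, 479 in the 3-day library and 1208 in the 7-day library, and cells with the reverse 1736, 2510 and 1865. The split was uneven among monocyte/macrophage-like cells, with 909 of the former and 11 of the latter in the PBS library, 91 and 501 in the 3-day library and 580 and 600 in the 7-day library. Within this class, sex therefore differed with treatment, and values from cells with Xist and no chromosome Y transcript are given beside the main results. Cell classes were rebuilt by clustering without the 10 genes or their pathway partners, and a class name stands for cells like that type by its markers. All 13 monocyte/macrophage markers were detected at 10 CPM (UMI counts scaled to a common total per sum of cells) or more in that class in every library. The class was named from this list, so this is no separate check of its purity. In its PBS cells, 11 of 12 acinar markers and 6 of 10 B cell markers also reached 10 CPM. Their sums were 1311 and 352 CPM, beside 47304 CPM for the monocyte/macrophage markers. Clusters without a name held 6.47% to 12.5% of the cells of a library.

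Clec4e, Clec4d and Clec4n lie beside each other on chromosome 6 of the mouse genome (GRCm38). Clec4e spans chr6:123281789-123289870 on the minus strand, Clec4d spans chr6:123262111-123275265 on the plus strand, and Clec4n spans chr6:123229843-123247021 on the plus strand. Clec4e and Clec4d had the highest ratios to PBS of the 10 genes in monocyte/macrophage-like cells, and their promoter sequences from RefSeq (assembly GRCm38.p6), from 250 bases before to 50 bases after the transcription start, are shown for that reason. Capitals mark matches on either strand to the letters GAGGAA, a core bound by the myeloid factor PU.1, and TTGCNNAA, a core bound by C/EBP factors. The Clec4e window is chr6:123289822-123290121, minus strand, and the Clec4d window is chr6:123261857-123262156, plus strand.
Clec4e promoter: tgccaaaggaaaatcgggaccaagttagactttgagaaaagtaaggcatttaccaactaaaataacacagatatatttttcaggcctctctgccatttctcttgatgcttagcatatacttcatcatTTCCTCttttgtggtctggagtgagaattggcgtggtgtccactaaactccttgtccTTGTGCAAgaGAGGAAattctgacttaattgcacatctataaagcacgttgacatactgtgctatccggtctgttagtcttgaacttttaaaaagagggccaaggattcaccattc
Clec4d promoter: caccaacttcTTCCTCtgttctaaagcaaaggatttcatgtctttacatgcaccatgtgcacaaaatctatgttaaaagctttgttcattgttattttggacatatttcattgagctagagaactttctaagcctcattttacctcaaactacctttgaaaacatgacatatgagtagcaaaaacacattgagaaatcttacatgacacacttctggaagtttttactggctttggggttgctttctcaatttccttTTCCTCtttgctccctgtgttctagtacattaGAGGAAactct

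The Clec4e window held 2 matches to GAGGAA, at positions -123 and -56 from the start site, and 1 match to TTGCNNAA at position -66. The Clec4d window held 3 matches to GAGGAA, at -240, 8 and 40, and none to TTGCNNAA. Neither window held a match to a loose κB core. Among 32851 mouse promoter windows of this length, 28.3% held GAGGAA, 10.8% held TTGCNNAA and 50.8% held the loose κB core, so a match by itself is common. The matches are letters only, and no binding was measured. Windows were found for 7 of the 10 genes.

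The other genes lie on separate chromosomes. Card9 is at chr2:26352176-26360918 (minus strand), Syk at chr13:52583173-52648792, Malt1 at chr18:65430938-65479067, Bcl10 at chr3:145922804-145934356, Plcg2 at chr8:117498291-117635142, Itgam at chr7:128062640-128118491 and Itgb2 at chr10:77530252-77565708, all on the plus strand except Card9. Card9 and Plcg2 overlap Gm13562 and Gm27361 on the opposite strand, and Itgam overlaps Gm49368 on its own strand. How reads were divided between these overlapping genes was not given in the sources used here. Since 3' ends were counted, levels are compared within a gene and not between genes.

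**Figure D1:**
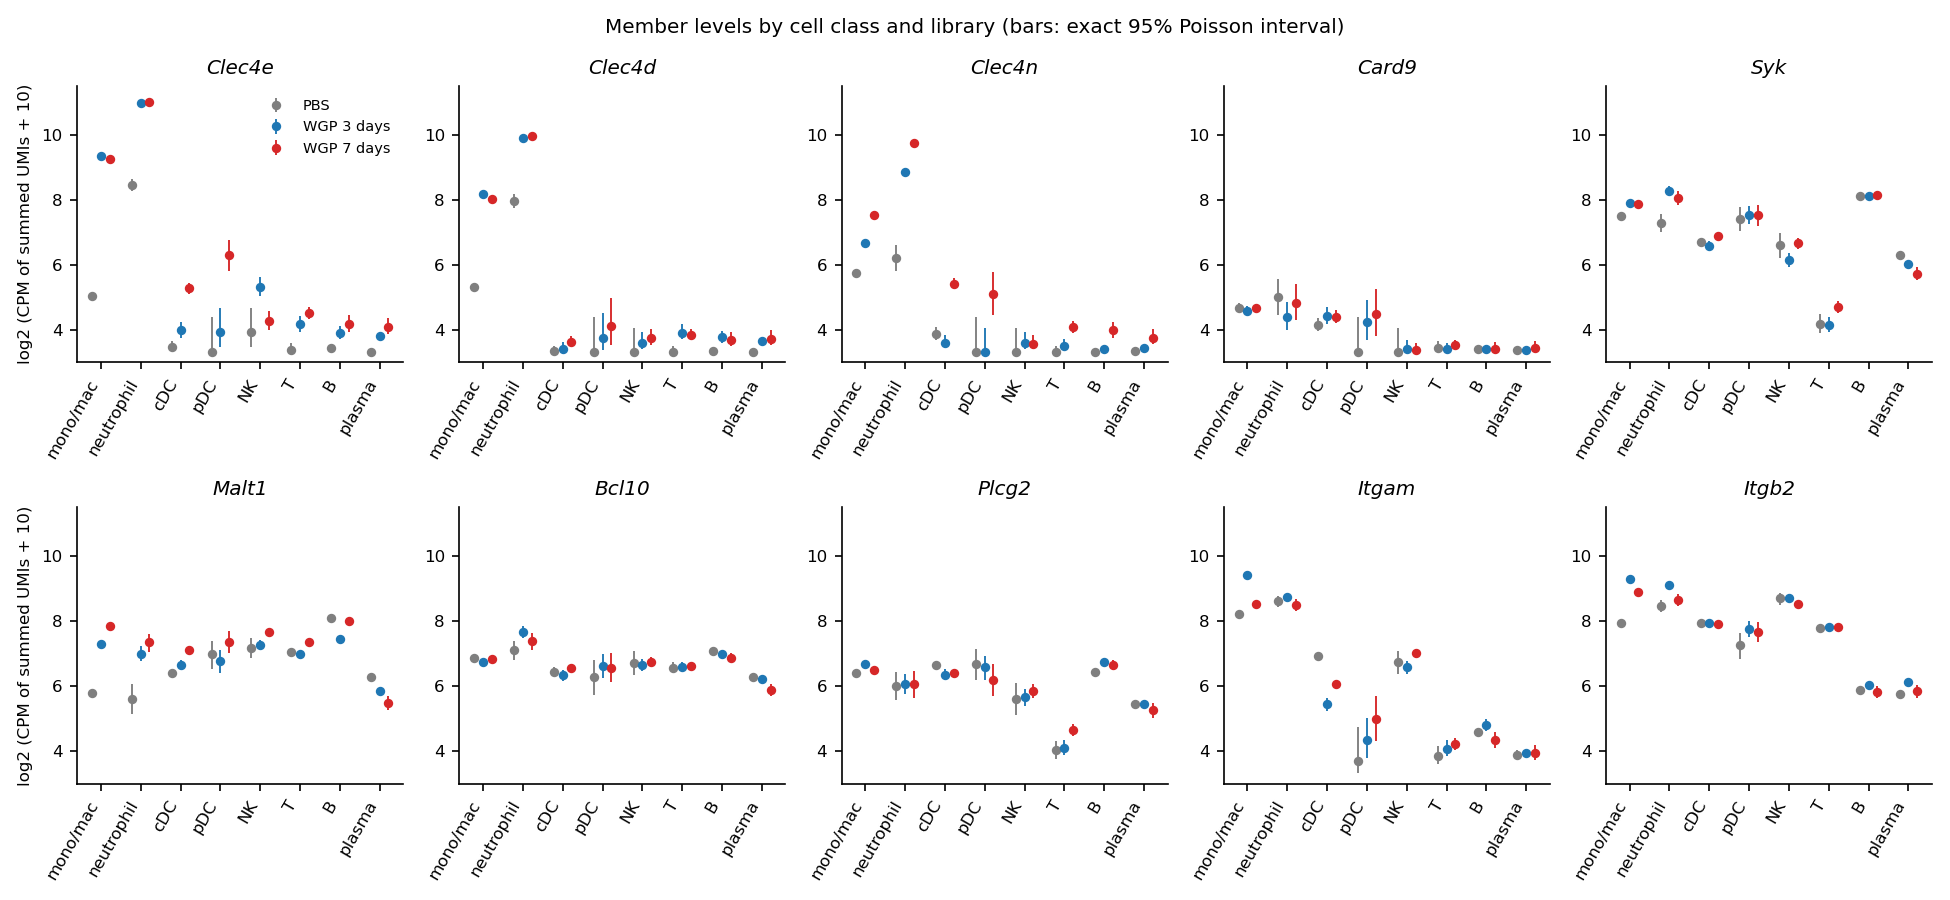
Level of each gene in 8 cell classes (horizontal axis) as log2 of CPM plus 10 (vertical axis), with grey points for PBS, blue for 3-day WGP and red for 7-day WGP, 1 library each, and bars for the exact 95% Poisson interval. The 3 lectins stood out in the monocyte/macrophage-like (mono/mac) and neutrophil-like cells, while Syk, Malt1, Bcl10 and Plcg2 were as high or higher in B-like than in monocyte/macrophage-like cells.

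The 3 lectin receptors were read almost wholly from phagocytes, and in monocyte/macrophage-like cells of both WGP libraries their levels were above those of the PBS library. For each library, the UMIs of all cells in the class were added up and expressed as CPM of that sum. Clec4e was at 22.5 CPM in the PBS library (interval 19.7 to 25.5), at 637 in the 3-day library (623 to 651) and at 597 in the 7-day library (586 to 609). PBS was low and both WGP libraries were high and near each other. The log2 ratio to PBS, with 10 CPM added to both levels, was 4.32 at 3 days (4.18 to 4.45) and 4.22 at 7 days (4.09 to 4.36), or 19.9-fold and 18.7-fold on that scale. The added 10 CPM lowers the ratio of genes with low levels. Among the 7650 genes with a mean of at least 10 CPM in this class, Clec4e ranked number 3 from the top at 3 days and number 6 at 7 days.

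Clec4d was at 29.95 CPM in the PBS library (26.7 to 33.4), at 280 in the 3-day library (270 to 289) and at 250 in the 7-day library (243 to 258). Its order of libraries was that of Clec4e, and its log2 ratio was 2.86 at 3 days (2.73 to 2.99) and 2.70 at 7 days (2.58 to 2.83). Clec4n was at 43.9 CPM in the PBS library (39.98 to 48.1), at 91.8 in the 3-day library (86.4 to 97.3) and at 174 in the 7-day library (167 to 180). By CPM, Clec4n thus differed from its neighbours in that the 7-day library was the highest. Its log2 ratio to PBS was 0.92 at 3 days (0.78 to 1.05) and 1.77 at 7 days (1.65 to 1.89). Taken directly between the WGP libraries, the log2 ratio of 7 days to 3 days was 0.85 for Clec4n (0.76 to 0.94), against -0.09 for Clec4e and -0.15 for Clec4d.

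A ratio past 2-fold on this scale (log2 of 1) was reached upward by 5 of the 10 genes at 3 days (Clec4e, Clec4d, Malt1, Itgam and Itgb2) and by 4 of the 10 at 7 days (Clec4e, Clec4d, Clec4n and Malt1), and by none downward. Of all 7650 genes, 3.29% were past 2-fold upward and 2.71% downward at 3 days, and 3.87% upward and 4.48% downward at 7 days. Since the 10 genes were chosen with earlier results of these data known, these shares stand beside the counts as description only. The median log2 ratio of the 10 genes was 1.06 at 3 days and 0.67 at 7 days, beside medians of -0.03 and -0.11 over all genes.

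**Figure D2:**
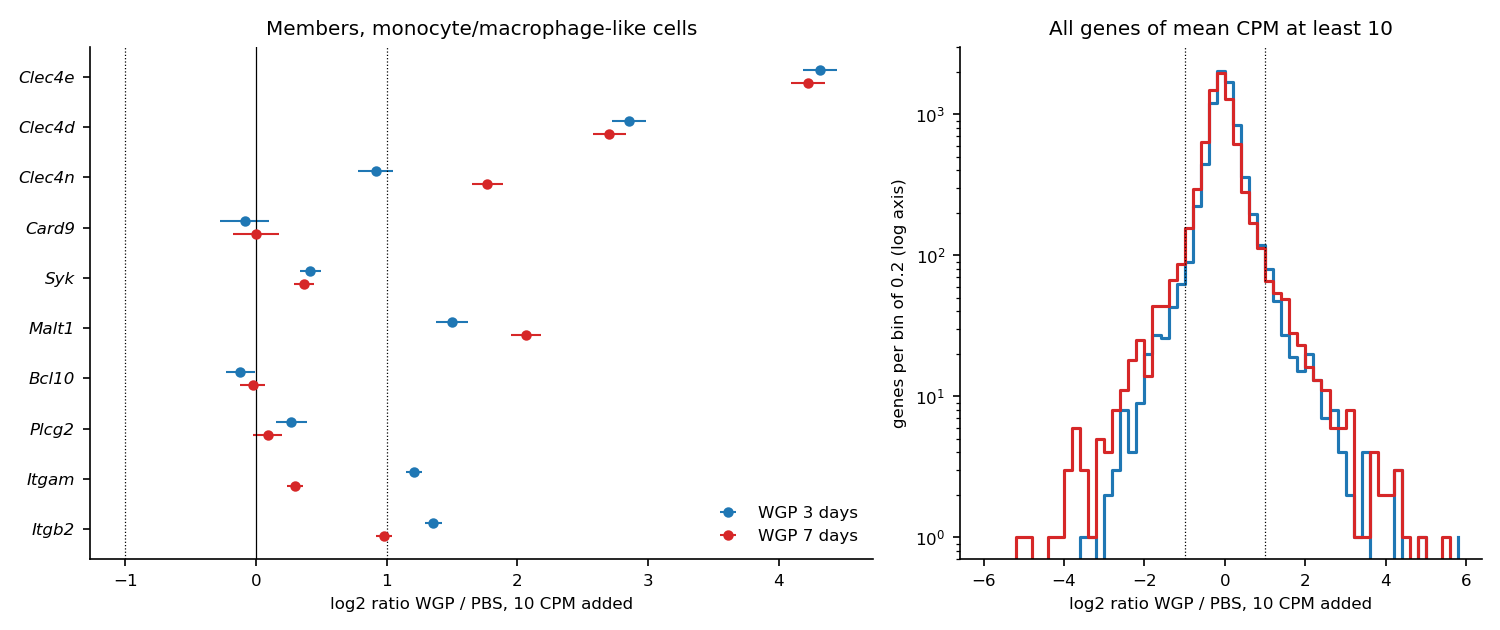
Left, log2 ratio of WGP to PBS (10 CPM added) for each of the 10 genes in monocyte/macrophage-like cells, with bars for the 95% counting interval and dotted lines at 2-fold; right, the number of genes per bin of that ratio over all 7650 genes, on a log axis. Clec4e at 4.32 and 4.22 and Clec4d at 2.86 and 2.70 lay in the thin upper tail, while Card9 and Bcl10 lay near 0.

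These ratios compare populations of different make-up, since different clusters held most of the class in each library. A cluster led by Pf4, Mrc1 and Stab1 held 685 of the 968 cells of the PBS library. A cluster led by Saa3, Arg1 and Marco held 444 of the 796 cells of the 3-day library, and clusters led by Ly6i, Cxcl9 and Fam26f (686 cells) and by Chil3, Ifitm6 and Sirpb1c (452 cells) held most of the 1486 cells of the 7-day library. The 3-day levels also differed with the sex-linked transcripts of the cells. In the 91 cells of the 3-day library with Xist and no chromosome Y transcript, Clec4e was at 116 CPM (log2 ratio 1.97, 1.71 to 2.22) and Clec4d at 82.8 CPM (1.196, 0.91 to 1.47). Clec4n was at 18.6 CPM in those cells, below PBS, with a log2 ratio of -0.94 (-1.34 to -0.53). Clec4e was at 754 CPM in the 501 cells of that library with the reverse. At 7 days, where 580 such cells were read, the ratios were 4.02 for Clec4e, 2.81 for Clec4d and 1.68 for Clec4n. Of the 10 neutrophil markers, 4, 6 and 4 were at 10 CPM or more in the monocyte/macrophage-like class of the 3 libraries, with sums of 174, 621 and 230 CPM. The part of sex, of cell make-up and of neutrophil transcripts in these values was not tested.

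Once each cell was thinned to 1000 UMIs, the share of cells with a UMI was also lowest in the PBS library for each lectin. Unlike CPM, the shares of Clec4e and Clec4d were not higher at 3 days than at 7 days. Clec4e was seen in 1.96% of monocyte/macrophage-like cells of the PBS library (1.19% to 3.05%), 29.1% of the 3-day library (26.0% to 32.4%) and 31.3% of the 7-day library (28.9% to 33.7%). Without thinning the shares were 8.78%, 66.0% and 72.5%, at median depths of 10149, 13965.5 and 10841.5 UMIs. In B-like cells, which should lack the gene and had median depths of 3813 to 5027 UMIs, the thinned shares were 0.0513%, 0.2401% and 0.386%. Clec4d was seen in 2.48%, 16.7% and 17.2% of monocyte/macrophage-like cells and Clec4n in 4.34%, 8.17% and 10.7%, against at most 0.193% and 0.579% of B-like cells.

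At least 1 of the 3 lectins was seen in 8.57% of thinned monocyte/macrophage-like cells of the PBS library (6.89% to 10.5%), 41.3% of the 3-day library (37.9% to 44.8%) and 44.0% of the 7-day library (41.5% to 46.6%). All 3 were seen together in 0 of 968, 6 of 796 and 29 of 1486 of these cells. Over the class as a whole, Clec4e was seen more often in cells with Clec4d than in cells without it in both WGP libraries. The class pools cells of different make-up, and co-detection within a cluster was not tested. In the 3-day library, Clec4e was seen in 50.4% of the cells with Clec4d (41.6% to 59.2%) and in 24.9% of the cells without it (21.6% to 28.4%), and in the 7-day library in 49.2% and 27.6%. Only 24 cells of the PBS library held Clec4d at this depth, and 1 of them held Clec4e.

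**Figure D3:**
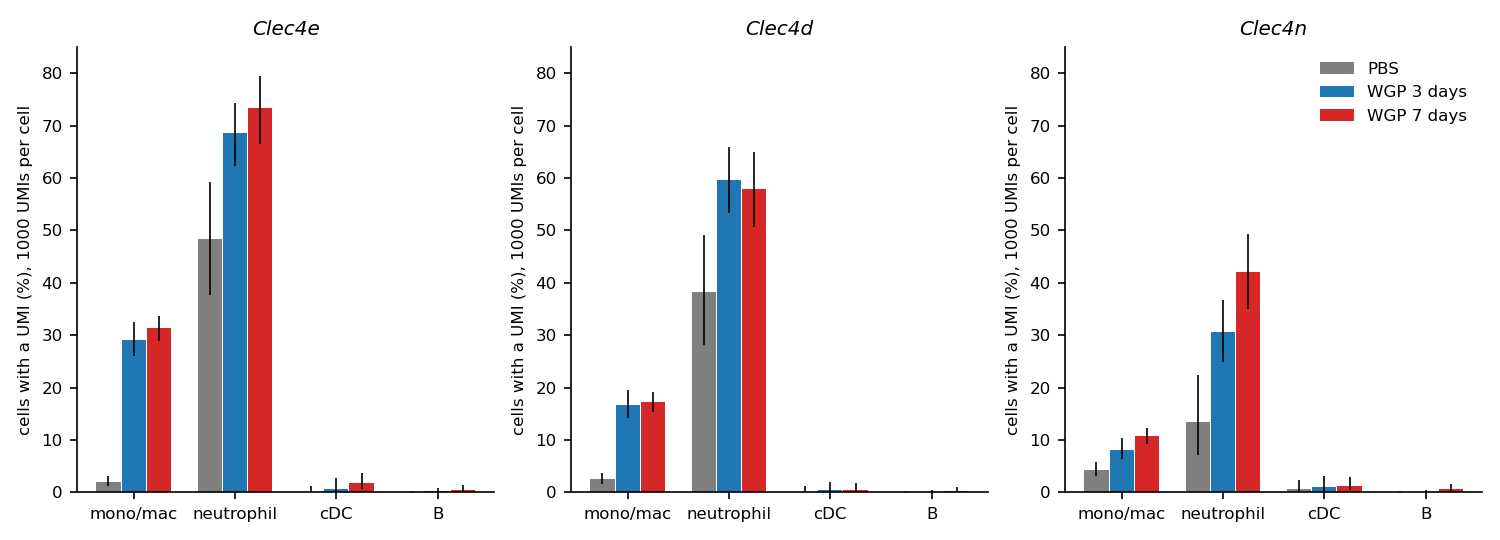
Share of cells with a UMI of Clec4e, Clec4d or Clec4n (vertical axis, percent) after thinning every cell to 1000 UMIs, in 4 classes, with 1 bar per library (grey PBS, blue 3-day WGP, red 7-day WGP) and lines for the exact 95% interval. Neutrophil-like cells had the highest shares of each lectin, and the WGP libraries were above PBS in monocyte/macrophage-like cells for all 3, for example 29.1% and 31.3% against 1.96% for Clec4e.

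In neutrophil-like cells the 3 lectins had their highest levels of any named class. Clec4e was at 339 CPM in the PBS library (295 to 387), 2011 in the 3-day library and 2029 in the 7-day library. Clec4d was at 239, 950 and 990 CPM. Clec4n was at 64.0, 450 and 842 CPM. As in monocyte/macrophage-like cells, PBS was lowest for each, the WGP libraries were close for Clec4e and Clec4d, and the 7-day library was highest for Clec4n. The log2 ratios to PBS at 3 and 7 days were 2.53 and 2.55 for Clec4e, 1.95 and 2.01 for Clec4d, and 2.64 and 3.52 for Clec4n.

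The neutrophil-like comparison rests on 89, 248 and 195 cells, with median depths of 3159, 3541 and 2338 UMIs. With Malt1, these lectins made 4 of the 10 genes past 2-fold upward at each time, and none was past it downward. Among 6431 genes tested in this class, 13.4% were past 2-fold upward and 4.63% downward at 3 days, and 13.1% and 4.91% at 7 days. The 10 neutrophil markers together took 254217 CPM in the PBS library but 104648 and 105962 in the WGP libraries, and a cluster led by the granule genes Camp, Ngp and Lcn2 held 39 of the 89 PBS cells but 28 and 7 cells of the WGP libraries. In cells with Xist and no chromosome Y transcript (24, 15 and 21 cells), the 3-day log2 ratios were lower, at 0.87 for Clec4e (0.30 to 1.42), 0.42 for Clec4d (-0.37 to 1.19) and 0.74 for Clec4n (-0.28 to 1.71), while the 7-day ratios were 2.90, 2.71 and 3.91. The part of these differences in the neutrophil-like ratios was not tested.

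The 2 phagocyte classes supplied nearly all transcripts of the lectins, but their shares shifted. Monocyte/macrophage-like cells held 49.5% of the Clec4e UMIs of the PBS library, 74.5% of the 3-day library and 85.6% of the 7-day library, and neutrophil-like cells held 45.3%, 23.2% and 10.7%. For Clec4d the monocyte/macrophage-like share was 66.1%, 73.1% and 85.4%, and for Clec4n it was 86.7%, 65.2% and 78.5%. The lectins were also above PBS in free RNA, read from barcodes of at most 100 UMIs, where Clec4e was at 14.6, 288 and 306 CPM. Free RNA was estimated, from acinar genes, to supply 0.944% to 1.68% of the UMIs of B-like, T-like and NK-like cells, which gives 0.16, 4.84 and 2.89 CPM of Clec4e. The levels measured in B-like cells were 0.893, 4.85 and 8.12 CPM, at or above these estimates and far below the phagocyte classes, and no expression is read from them.

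Dendritic-like cells had low levels of the lectins. In conventional dendritic-like cells, Clec4e was at 1.07 CPM in the PBS library (5 UMIs), 5.70 in the 3-day library and 28.7 in the 7-day library (24.4 to 33.6, in 45 of 382 cells), and Clec4n was at 4.48, 2.10 and 32.6 CPM (27.9 to 37.7 at 7 days). In plasmacytoid dendritic-like cells, Clec4e had 0 UMIs in the PBS library (up to 10.95 CPM), 5.23 CPM in the 3-day library and 68.2 CPM in the 7-day library (45.3 to 98.6), where the 28 UMIs lay in 4 of 41 cells. The 7-day level was above the PBS level in each case, and few cells carried it in the plasmacytoid class. In NK-like cells Clec4e was at 5.31, 30.04 and 9.20 CPM (22.9 to 38.7 at 3 days). That interval overlapped the 7-day conventional dendritic-like one. T-like cells were at 0.366, 7.96 and 12.6 CPM. Clec4n was at most 2.00 CPM in NK-like and 6.84 CPM in T-like cells. Over all alternatives the 7-day log2 ratio in conventional dendritic-like cells was 0.62 to 3.85 for Clec4e and 0.07 to 2.61 for Clec4n. The part of other cells' transcripts in the dendritic-like levels was not tested.

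The signalling chain and the first kinase differed between libraries much less than the lectins did. Fcer1g, the shared chain of Mincle, MCL and Dectin-2, was at 2258 CPM in monocyte/macrophage-like cells of the PBS library, 2455 in the 3-day library and 3185 in the 7-day library, with log2 ratios of 0.12 and 0.49. Syk, the kinase recruited by that chain, was at 170 CPM in the PBS library (162 to 178), 230 in the 3-day library (222 to 239) and 222 in the 7-day library (215 to 229). The log2 ratio, 0.42 at 3 days (0.34 to 0.50) and 0.37 at 7 days (0.29 to 0.44), exceeded counting error but not 2-fold.

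Syk was read from many classes. B-like cells, in which SYK acts below the B cell receptor, had the highest mean level of the named classes, at 267, 269 and 274 CPM in the 3 libraries, which did not differ beyond counting error. Neutrophil-like cells, at 147, 298 and 254 CPM, overlapped that range, and were followed by monocyte/macrophage-like cells, whose range overlapped theirs, and plasmacytoid dendritic-like cells at 160 to 175 CPM. T-like cells were at 7.69 to 15.8 CPM. Monocyte/macrophage-like cells supplied 26.2%, 43.9% and 61.8% of all Syk UMIs, and B-like cells 48.2%, 22.9% and 14.4%.

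Plcg2, the phospholipase that SYK activates, was at 75.6 CPM in monocyte/macrophage-like cells of the PBS library (70.5 to 81.1), 93.3 in the 3-day library (87.9 to 98.9) and 81.2 in the 7-day library (77.1 to 85.5). Its log2 ratio was 0.27 at 3 days (0.15 to 0.39) and 0.09 at 7 days (-0.02 to 0.20), so the 7-day value did not differ from PBS beyond counting error. B-like cells at 76.4 to 98.0 CPM, conventional dendritic-like cells at 71.8 to 91.1 and plasmacytoid dendritic-like cells at 63.3 to 92.0 lay in the same range. T-like cells were at 6.22 to 15.1 CPM. Prkcd, the kinase that phosphorylates CARD9, was at 285, 362 and 419 CPM in monocyte/macrophage-like cells, with log2 ratios of 0.34 and 0.54.

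Within the adaptor complex, Malt1 was higher in both WGP libraries, while Card9 and Bcl10 were near their PBS level. Card9, the adaptor that links SYK to NF-κB in myeloid cells, was at 15.5 CPM in monocyte/macrophage-like cells of the PBS library (13.3 to 18.1), 14.1 in the 3-day library (12.0 to 16.3) and 15.6 in the 7-day library (13.8 to 17.5). The 3 intervals overlapped, and the log2 ratio was -0.09 at 3 days (-0.28 to 0.10) and 0.00 at 7 days (-0.17 to 0.18), both intervals lying inside 2-fold. Bcl10, which CARD9 nucleates into filaments, was at 107, 98.2 and 105 CPM. The log2 ratio of Bcl10 was -0.12 at 3 days (-0.23 to -0.01) and -0.03 at 7 days (-0.12 to 0.07).

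Malt1, the protease of the complex, was at 45.7 CPM in monocyte/macrophage-like cells of the PBS library (41.7 to 49.95), 148 in the 3-day library (141 to 155) and 223 in the 7-day library (216 to 230). The libraries were ordered PBS, 3 days, 7 days without overlap of their intervals, and the log2 ratios to PBS were 1.502 at 3 days (1.38 to 1.63) and 2.07 at 7 days (1.95 to 2.18). In cells with Xist and no chromosome Y transcript, the 3-day ratio was 0.68 (0.40 to 0.96) and the 7-day ratio 1.62 (1.48 to 1.75). In neutrophil-like cells Malt1 was at 39.0, 118 and 153 CPM, with log2 ratios of 1.38 and 1.73. In the few neutrophil-like cells with Xist and no chromosome Y transcript, the 3-day ratio was -0.014 (-1.36 to 1.34), from 4 UMIs in 15 cells, and the 7-day ratio was 2.48 (1.5003 to 3.41). In those with the reverse, of which PBS had 8, the ratios were 0.14 (-0.69 to 1.07) and 0.084 (-0.84 to 1.08).

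The 3 complex genes were spread differently over the classes. Card9 was read mainly from myeloid classes. Neutrophil-like cells were at 10.96 to 21.9 CPM (12 to 14 UMIs a library), monocyte/macrophage-like cells at 14.1 to 15.6 and conventional dendritic-like cells at 7.68 to 11.4, with overlapping ranges for the first 2, while B-like cells were at 0.487 to 0.601 CPM. Malt1, which lymphocytes use below their antigen receptors, had its highest mean level of the named classes in B-like cells, at 262, 166 and 248.96 CPM. NK-like cells at 135 to 195 CPM, monocyte/macrophage-like cells at 45.7 to 223 and T-like cells at 117 to 156 followed, with overlapping ranges. Bcl10 was at 128 to 194 CPM in neutrophil-like, 107 to 127 in B-like and 84.8 to 87.7 in T-like cells. Of all Malt1 UMIs, monocyte/macrophage-like cells held 8.1%, 34.7% and 52.3%, and B-like cells 53.9%, 17.4% and 11.04%.

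The complement receptor 3 genes were highest in the 3-day library over monocyte/macrophage-like cells as a whole. Itgam, the CD11b chain, was at 289 CPM in the PBS library (279 to 300), 683 in the 3-day library (668 to 698) and 358 in the 7-day library (349 to 367). The 3-day library stood above the other two, with a log2 ratio to PBS of 1.21 against 0.30 at 7 days (intervals 1.15 to 1.27 and 0.24 to 0.36), and the log2 ratio of 7 days to 3 days was -0.91 (-0.96 to -0.87). Itgb2, the CD18 chain that CD11b shares with other β2 integrins, was at 235 CPM in the PBS library (226 to 244), 617 in the 3-day library (603 to 631) and 472 in the 7-day library (462 to 483), and its log2 ratio was 1.36 at 3 days (1.29 to 1.42) and 0.98 at 7 days (0.92 to 1.04). In the class as a whole both chains were thus highest at 3 days, Itgam by the wider margin. In cells with Xist and no chromosome Y transcript, the 3-day ratios were 1.48 for Itgam and 0.87 for Itgb2, and the 7-day ratios were 0.34 and 1.01, so that Itgb2 lay on the other side of 2-fold at both times. In those cells Itgb2 was highest at 7 days, at 482 CPM against 435 CPM at 3 days.

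In neutrophil-like cells both chains were highest at 3 days, but only Itgb2 was above PBS beyond counting error at that time. Itgam was at 381, 417 and 350 CPM there, and its ratio did not differ from PBS beyond counting error at either time (log2 0.13 and -0.12). Itgb2 was at 347, 539 and 393 CPM, with a 3-day log2 ratio of 0.62. In conventional dendritic-like cells Itgam was at 111 CPM in the PBS library, 33.3 in the 3-day library and 56.5 in the 7-day library. This was the reverse of its order in monocyte/macrophage-like cells, while Itgb2 was at 236, 235 and 232 CPM in the dendritic-like cells. That reverse did not hold under separate clustering of the libraries, where the 3-day log2 ratio of Itgam was 0.88 in place of -1.48. Itgb2 was at 358 to 410 CPM in NK-like cells and 211 to 217 in T-like cells, and Itgam at 86.1 to 119 in NK-like cells and 10.2 to 17.9 in B-like cells.

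Monocyte/macrophage-like cells were clustered again, without the 10 genes or their partners, to describe the levels in like states across libraries. The states were named from their markers except the last, and the number of cells from PBS, 3 days and 7 days was 25, 48 and 663 for an inflammatory state led by Ly6i, Ccl5 and Cxcl9, 21, 143 and 378 for a Ly6C-high state led by Vcan, Ms4a4c and Ly6c2, 9, 401 and 263 for a state led by Arg1, Saa3 and Cd5l, 576, 88 and 30 for a resident state led by Mgl2, Gas6 and Cbr2, and 124, 41 and 100 for a state led by Elane, Ace and Prtn3. The last, called the Elane/Ace state by its leading genes, held the patrolling monocyte markers Ace, Spn and Treml4 and the granule protease genes Elane, Prtn3 and Ctsg among its 10 leading genes. Levels in fewer than 20 cells are not given. Clec4e was at 94.7 CPM in the PBS cells of the inflammatory state (61.3 to 140), 668 in the 3-day cells and 772 in the 7-day cells. In the Ly6C-high state it was at 47.2 CPM (22.7 to 86.9), 348 and 386. The PBS cells were below both WGP libraries in these states, with log2 ratios of 2.70 and 2.90 in the inflammatory state and 2.64 and 2.79 in the Ly6C-high state.

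The resident and Elane/Ace states had lower Clec4e in the WGP libraries than the other states. In the resident state Clec4e was at 2.04 CPM in the PBS library (13 UMIs), 25.8 in the 3-day library (16.0 to 39.5) and 64.6 in the 7-day library (36.9 to 105), so the libraries were again ordered with PBS lowest. In the Elane/Ace state it was at 108, 192 and 155 CPM, and the log2 ratio was 0.77 at 3 days (0.37 to 1.17) and 0.49 at 7 days (0.14 to 0.83). The Arg1 state had 892 CPM at 3 days and 681 at 7 days.

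Clec4d and Clec4n were highest in different states. Clec4d was at 423 and 541 CPM in the Arg1 state of the 3-day and 7-day libraries, above the 140 and 233 CPM of the inflammatory state. In the Ly6C-high state it had 0 UMIs in the 21 PBS cells (up to 17.4 CPM) and was at 73.2 and 89.5 CPM in the WGP libraries. Clec4n was highest in the inflammatory state, at 110, 248.5 and 289 CPM, and was at 96.9 and 116 CPM in the Arg1 state. In the resident state Clec4d was at 25.4, 45.5 and 44.4 CPM and Clec4n at 59.9, 77.5 and 137 CPM, and the 7-day Clec4d interval there, with 11 UMIs, overlapped that of PBS.

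Malt1 also differed by state. It was at 75.8, 201 and 310 CPM in the inflammatory state and at 52.0, 82.1 and 152 in the Ly6C-high state, with the 7-day cells highest in both. In the resident state it was at 20.1, 22.1 and 16.1 CPM and in the Elane/Ace state at 106, 124 and 99.7 CPM, where no library differed from PBS beyond counting error. With resident cells alone, Malt1 therefore had a 7-day log2 ratio of -0.20 (-1.08 to 0.79) in place of 2.07.

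The integrin chains followed the states in another way. Itgam was highest in the Arg1 state, at 897 CPM at 3 days and 680 at 7 days. In the inflammatory state it was at 254, 216 and 236 CPM, with no difference from PBS beyond counting error. In the Ly6C-high state it was at 118, 444 and 314 CPM, and in the resident state at 238, 436 and 299. Itgb2 was at 773 and 731 CPM in the Arg1 state, at 197, 407 and 388 in the inflammatory state and at 154, 165 and 234 in the resident state. In the Ly6C-high state Itgb2 was at 198, 491 and 425 CPM. The Elane/Ace state went the other way, with Itgam at 329, 288 and 265 CPM and Itgb2 at 487, 487 and 394 CPM. The 7-day log2 ratio there was -0.30 for Itgam (-0.54 to -0.06) and -0.30 for Itgb2 (-0.50 to -0.10). The Arg1 state held 401 of the 796 cells of the class at 3 days but 263 of 1486 at 7 days.

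**Figure D4:**
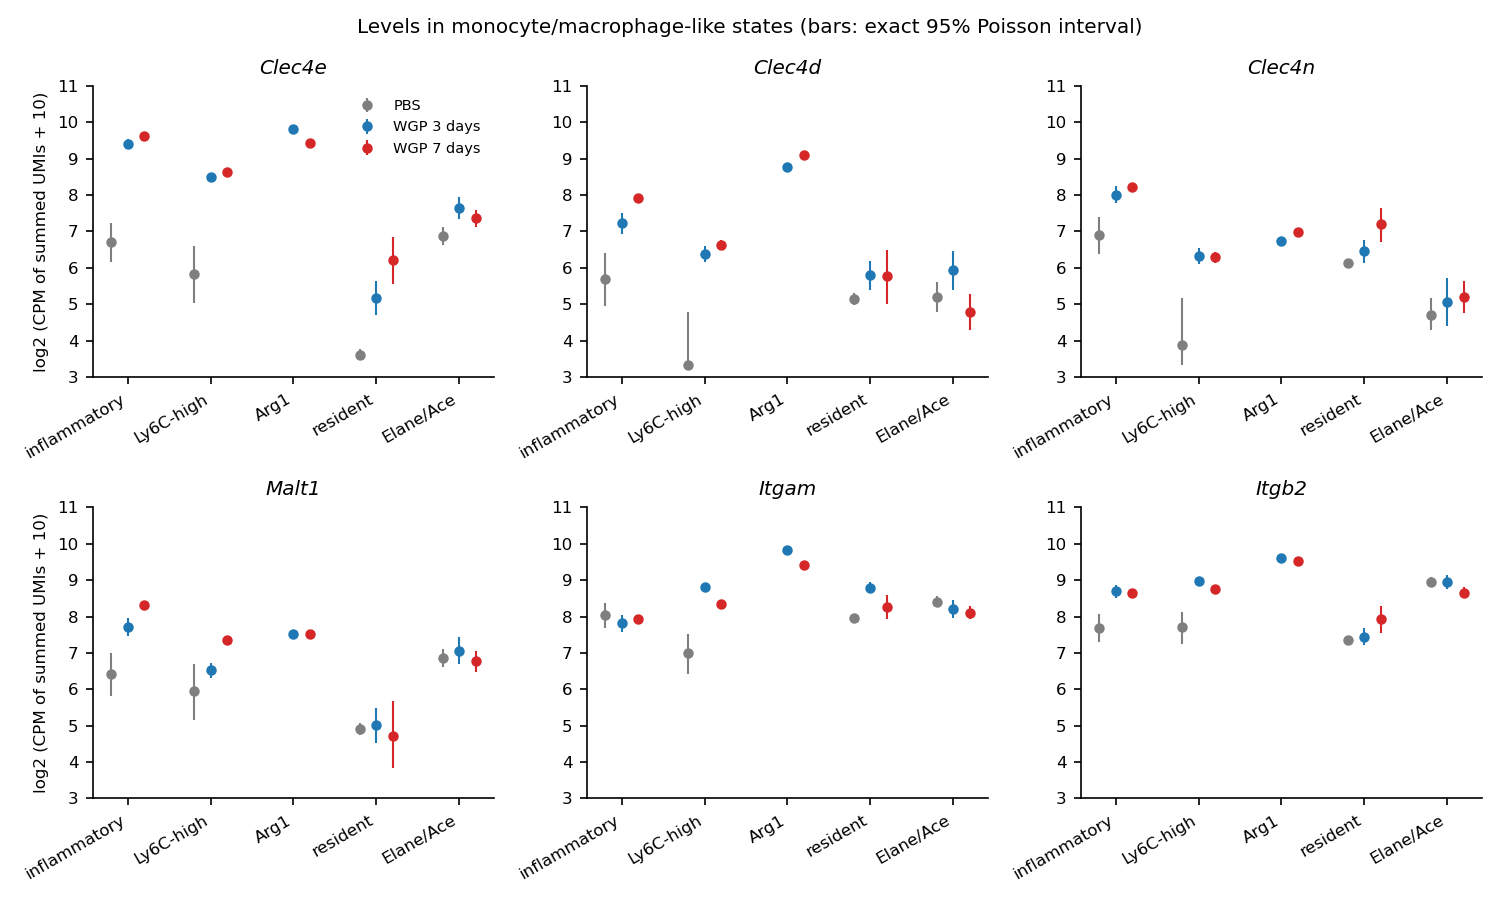
Levels of 6 of the genes as log2 of CPM plus 10 (vertical axis) in 5 states of monocyte/macrophage-like cells (horizontal axis), with grey points for PBS, blue for 3-day WGP and red for 7-day WGP, 1 library each, and bars for the exact 95% Poisson interval; no PBS point is drawn for the Arg1 state, which held 9 PBS cells. Clec4e was above PBS in each of the 4 states with a PBS level, while Malt1 in the resident and Elane/Ace states did not differ from PBS beyond counting error.

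Card9 kept low levels in every state. It was at 23.6, 24.7 and 24.1 CPM in the Ly6C-high state, at 33.5, 18.7 and 31.3 in the Elane/Ace state and at 11.4 and 10.5 in the Arg1 state of the WGP libraries, and 1 to 2 UMIs lay behind its lowest values elsewhere. Syk was at 132 CPM in PBS cells of the Ly6C-high state and at up to 313 CPM in 3-day cells of the inflammatory state, and Plcg2 was at 118, 175 and 109 CPM in the Ly6C-high state but 71.3 and 48.6 CPM in the Arg1 state.

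Genes around the pathway were read from lists that, like the 10 genes, were drawn up with earlier results of these data known. The counts below stand beside the shares of all 7650 genes of this class. These were 3.29% upward and 2.71% downward at 3 days, and 3.87% upward and 4.48% downward at 7 days. The list of other glucan and fungal receptors also held the signalling chain Fcer1g and Nlrp3, which are not such receptors. Of its 13 genes with enough reads, 1 was past 2-fold upward and 4 downward at 3 days, and 3 upward and 5 downward at 7 days. The median log2 ratios were 0.12, which was the value of Fcer1g, and 0.19. Tlr2, a receptor of yeast zymosan, was at 84.1, 201 and 216 CPM (log2 ratios 1.17 and 1.26). Mrc1, the macrophage mannose receptor, was at 975, 281 and 71.7 CPM (-1.76 and -3.59), Clec4b1 had ratios of -1.86 and -2.08, and Cd209a, a DC-SIGN family lectin, had -1.49 and -1.07.

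Of 19 proximal kinase, adaptor and phosphatase genes, none was past 2-fold at 3 days in either direction, and 1 was at 7 days, the B cell adaptor Blnk, at 94.7 CPM in the PBS library and 18.7 in the 7-day library (-1.87). Blnk is also on the B cell marker list, whose 10 genes summed to 352, 199 and 109 CPM in this class. The part of B cell transcripts in the Blnk value was not tested. The list medians were 0.22 and 0.23. None of 5 other CARD and MALT1 complex genes was past 2-fold at either time.

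Of 25 genes of the NF-κB and NFAT branch, 3 were past 2-fold upward and 1 downward at 3 days, and 7 upward and 1 downward at 7 days, with medians of 0.15 and 0.35. The feedback inhibitors Tnfaip3 (1.87 and 1.82) and Nfkbia (1.32 and 1.34) were higher at both times and Bcl3 at 7 days (1.53), while the transcription factor gene Nfatc2 was lower (-1.31 and -1.37). Of 13 integrin partner genes, 1 was past 2-fold upward at 3 days and 2 at 7 days. They were C3, the source of the iC3b ligand of complement receptor 3, at 69.6, 254 and 552 CPM (1.73 and 2.82), and Icam1, a ligand of β2 integrins, at 50.9 and 170 CPM in the PBS and 7-day libraries (1.56).

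Cytokine and immediate early genes that act downstream had the highest list medians, 1.60 at 3 days and 1.02 at 7 days, with 7 and 6 of 11 past 2-fold upward and none downward. Il1b was at 91.2, 577 and 1448 CPM (2.54 and 3.85), and Ptgs2, the inducible cyclooxygenase, at 8.53, 97.3 and 312 CPM (2.53 and 4.12). The neutrophil attractant Cxcl2 was higher at both times (1.94 and 1.63), and Cxcl1 was past 2-fold at 3 days (2.12) but not at 7 days (0.90).

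**Figure D5:**
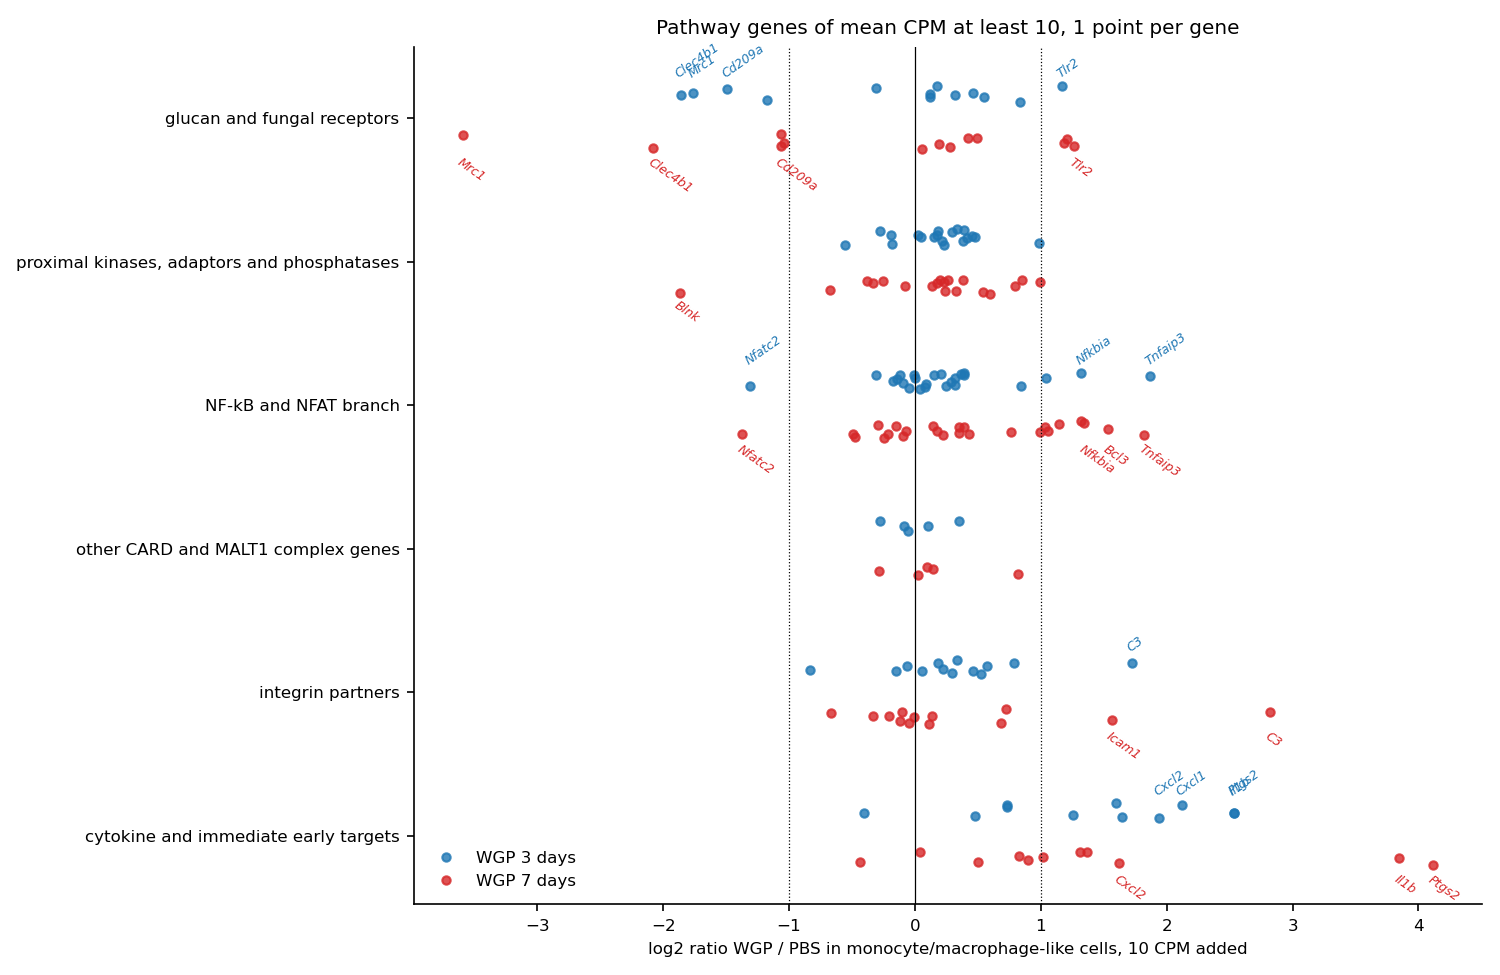
Log2 ratio of WGP to PBS (10 CPM added, horizontal axis) in monocyte/macrophage-like cells for each gene of 6 pathway lists (vertical axis), 1 point per gene with a mean of at least 10 CPM, blue for 3 days and red for 7 days, jittered vertically within a list, with dotted lines at 2-fold. Points past 2-fold lay to the right among cytokine genes, with 7 and 6 of 11 genes, and on both sides in the list of glucan and fungal receptors. Of all genes of the class, 3.29% and 3.87% were past 2-fold upward and 2.71% and 4.48% downward.

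Over 36 sums of a class in a library, the pattern of each lectin was compared with that of 7831 genes by Pearson's correlation of log2 of CPM plus 10. These points share libraries and differ in depth, and the correlation is a description. The genes most like Clec4e were Tnfaip2 (0.97), the formyl peptide receptor gene Fpr2 (0.96) and Clec4d (0.96). Those most like Clec4d were Fpr1 (0.98), Fpr2 (0.97) and Clec4e (0.96), and those most like Clec4n were Il1rn, Clec5a and Tnfaip2 (0.96 each). Card9 was most like Csf2ra (0.95), Gpr141 (0.94) and Pirb (0.93). Among the 10 genes, Syk and Plcg2 had an r of 0.93 and Malt1 and Bcl10 of 0.82, while Clec4d and Malt1 had the lowest, 0.18.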

How the data were processed

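Counts were those the authors deposited: UMI counts per gene and barcode, made with Cell Ranger 3.1.0 on mm10, per the labels, with no normalization. All barcodes were read, and 0 columns of values were left unused. Cells were clustered with Seurat 5.3.0 (sctransform 0.4.2, 3000 variable genes, 30 components, resolution 0.8, and 0.4 for states), with cell cycle, mitochondrial and ribosomal terms regressed. A cluster took a class name from marker lists when its mean log2 fold was at least 1 and led the next list by 0.75 (0.5 for states). That naming rule and the free RNA estimate were set after clusters had been seen. The 10 genes and all lists were chosen with earlier results of these data known. Named genes were all 10 members, up to 4 genes per list with the largest ratio past 2-fold, fixed partners (1 is not reported here), the 3 most alike genes per lectin and Card9, and the 3 leading genes of a cluster. Scrublet (scanpy 1.11.5) called 0, 0 and 2 doublets at its own threshold, so it did not work here and doublets were kept. An alternative removed the 220, 190 and 139 cells with the highest Scrublet scores, at an assumed doublet rate of 0.8% per 1000 cells. It rests on the same scores and cannot show that doublets were removed. Levels, ratios and intervals were computed with numpy 2.4.6 and scipy 1.17.1 and tested on simulated data. A level at 0 is given with its upper bound. With 1 library per group, no test between groups was run. Alternatives covered UMI, mitochondrial and ribosomal limits, doublets, clustering, pseudocounts, TMM scaling (edgeR 4.0.16), free RNA, sex and states. Gene positions are from GENCODE release M21.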

Additional observations from a re-analysis of the deposited data

Results flagged for a closer look

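The 3-day ratio of Itgam to PBS had opposite signs in a pair of classes, with a log2 ratio of 1.21 in monocyte/macrophage-like cells and -1.48 in conventional dendritic-like cells. The sign in the dendritic-like cells turned with the libraries clustered separately (0.88) and with cells holding only chromosome Y transcripts (1.17). There was 1 library per group, and the difference was not tested.

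Free RNA, read from barcodes of at most 100 UMIs that enter no comparison, was more than 2-fold above the PBS library for several genes. The log2 ratios at 3 and 7 days were 3.597 and 3.68 for Clec4e, 2.52 and 2.71 for Clec4d, 1.90 and 2.21 for Clec4n, and 1.21 and 1.09 for Itgb2, and the 3-day ratio was 1.17 for Itgam. Malt1 at 7 days (155 against 95.7 CPM) and Bcl10 at 3 days (75.6 against 54.5 CPM) were above PBS by less.

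Clusters left without a name also differed from PBS. In a cluster of low depth led by Gm42418, Vpreb1 and Malat1 (107, 43 and 214 cells), the 7-day log2 ratios were 3.29 for Clec4e, 2.11 for Clec4d and 1.31 for Malt1, and the 3-day ratio was 1.501 for Itgb2. In a cluster led by Cxcl13, Clu and Igfbp7 (55, 23 and 24 cells), the 7-day ratio was 2.13 for Itgb2, from 29 UMIs in 3 cells against 4 UMIs in 2 cells of the PBS library.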

How the results depend on the processing

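In monocyte/macrophage-like cells, 5 genes at 3 days and 4 at 7 days were past 2-fold upward. With cells holding Xist and no chromosome Y transcript the counts were 3 and 5, where 1.98% and 3.18% of all genes were past it. With cells holding the reverse, of which PBS had 11, the counts were 8 and 8, where 26.9% and 25.3% of all genes were past it, so nothing is read from them. With the inflammatory and Ly6C-high states alone, an alternative added after seeing the data, the counts were 3 and 4 (2.40% and 2.89% of all genes), and with the resident state alone, also added, 1 and 2 (0.947% and 2.33%). Itgb2, near 2-fold at 7 days, passed it with a minimum of 500 UMIs, separate clustering, resolution 0.4 and a pseudocount of 1 CPM. Each gave a 7-day count of 5, where 4.12%, 4.12%, 4.12% and 5.11% of all genes were past it upward. Itgb2 fell below 2-fold at 3 days with barcodes up to the knee of the rank curve, where the count was 4 (2.52% of all genes). A pseudocount of 1 CPM also brought Clec4n past 2-fold at 3 days, for a count of 6, where 4.68% of all genes were past it upward. Removing the cells with the highest Scrublet scores gave counts of 5 and 4 (3.37% and 4.01% of all genes upward). Subtracting free RNA gave the same counts (3.30% and 3.89%), as did leaving out states led by genes of other cell types (also added, 3.47% and 3.95%). TMM scaling gave counts of 6 and 5, put the median log2 ratio of all genes at 0.07 and 0.10, and moved the shares of all genes past 2-fold upward and downward to 4.01% and 2.12% at 3 days and 5.51% and 3.21% at 7 days. Over all alternatives the log2 ratio of Clec4e ranged from 1.57 to 4.76 at 3 days and from 2.63 to 4.67 at 7 days, and that of Clec4n from -0.94 to 3.44 and from 1.07 to 4.198. The upper ends for Clec4n came from cells with a chromosome Y transcript and no Xist, where the 11 PBS cells had 0 Clec4n UMIs, and nothing is read from them. The 7-day ratio of Malt1 was -0.20 in the resident state alone. In neutrophil-like cells the 3-day ratio of Malt1 was -0.014 with Xist-holding cells alone. In conventional dendritic-like cells the 3-day ratio of Itgam was 0.88 with the libraries clustered separately and 1.17 with cells holding only chromosome Y transcripts. The cause was not tested. No paired analysis was possible because each group had 1 library. Depth limits Card9, with 12 to 14 UMIs per library in neutrophil-like cells.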

Other observations

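Further co-detection values in thinned cells, pooled over each class, were as follows. In neutrophil-like cells, all 3 lectins were seen together in 7.87% of the PBS cells (3.22% to 15.5%), 19.4% of the 3-day cells (14.6% to 24.8%) and 24.1% of the 7-day cells (18.3% to 30.7%), and at least 1 was seen in 65.2%, 84.7% and 90.3%. In 7-day monocyte/macrophage-like cells, Clec4n was seen in 18.7% of the cells with Clec4e (15.3% to 22.6%) and in 7.05% of the cells without it (5.56% to 8.80%). In 3-day cells of that class the shares were 9.48% and 7.62%, with overlapping intervals. Itgb2 was seen in 49.8% of the 3-day monocyte/macrophage-like cells with Itgam (44.1% to 55.6%) and in 34.4% of those without it (30.2% to 38.8%).

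In a second resident cluster of monocyte/macrophage-like cells, led by Cxcl13, Lyve1 and Vsig4 and holding 41 PBS cells, Clec4d was at 144 CPM and Itgam at 714 CPM, against 25.4 and 238 CPM in the PBS cells of the resident state led by Mgl2, Gas6 and Cbr2.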
